A study of Mus musculus with 9 samples.

Results

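Zinc handling in BV2 cells was described through 10 genes, the metallothioneins Mt1 and Mt2, the zinc-sensing transcription factor Mtf1, the exporters Slc30a1, Slc30a5 and Slc30a7, and the importers Slc39a1, Slc39a6, Slc39a7 and Slc39a10. The genes were taken by symbol from the deposited table of gene expression, where they were 10 of 40993 genes, each with 1 row. They were chosen by name after FPKM values and differences between these 3 groups of libraries had been seen, so their values describe the set and are no test of it. All 10 passed the filter on low values, an average FPKM of 1 or more across libraries, as did 11161 genes in all. FPKM counts fragments per kilobase of transcript, scaled to the number of mapped fragments in a library, a level per length that can be compared between genes.

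BV2 is an immortalized microglial cell line of mouse. Poly(A)-enriched RNA of this line was sequenced in 9 libraries, in 3 groups of 3: untreated control cells, cells given a low dose and cells given a high dose of MNPs@SiO2(RITC) for 12 h. The doses are 10 and 100 µg/ml in the methods of the study. The particle is a cobalt ferrite core in a silica shell that carries the dye rhodamine B isothiocyanate. The labels give no other treatment and no genetic change, all 9 libraries came from the same line, and control cells differed from treated cells by the whole particle, so metal, silica and dye cannot be told apart. Nothing in the labels says that the libraries of a group came from separate experiments, so a test here measures the spread between these libraries, which may be technical. In bulk RNA, fewer cells with a transcript and less of it per cell cannot be told apart.

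Free zinc in the cytosol is kept very low by proteins that bind, export and import it. Metallothioneins are small cysteine-rich proteins that bind zinc, copper and cadmium. MTF1 binds zinc through its zinc fingers and then binds metal response elements, short motifs in the promoters of Mt1, Mt2 and Slc30a1 among others. SLC30 proteins (ZnT) move zinc out of the cytosol, across the plasma membrane or into organelles, and SLC39 proteins (ZIP) move it into the cytosol. Macrophages are known to move zinc between compartments through these proteins during activation.

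The line showed some microglial and macrophage markers and lacked others. All 12 markers looked for were listed, with Cd68, a lysosomal glycoprotein of phagocytes, the most abundant at a mean of 413.3 FPKM. The chemokine receptor Cx3cr1 had a mean of 0.0391 FPKM in control cells and the purinergic receptor P2ry12 had 0.121, while the microglial factor Sall1 was listed at 0 in all control and all 100 µg/ml libraries. These 3 markers of resident microglia were thus at or near 0, whereas Tmem119, another, had 2.24 ± 0.168 FPKM in control cells (SD, n = 3). Summed astrocyte markers reached at most 0.798 FPKM in any library and oligodendrocyte markers 1.444, and the 3 neuronal markers in the table were listed at 0 throughout.

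The promoters of Mt1, Mt2 and Slc30a1 are shown because the core of the metal response element was found at least 2 times in the promoter window of each, and because these 3 genes had the highest fold changes of the 10 between 100 µg/ml and control cells. Sequences and starts are those of RefSeq on GRCm38.p6. Each run holds the 250 bases before the transcription start, 5′ to 3′ on the strand of the gene, which is the plus strand in each case. The regions are chr8:94178839-94179088 for Mt1, chr8:94172368-94172617 for Mt2 and chr1:191906531-191906780 for Slc30a1. Capitals mark matches to TGCACNC or TGCGCNC on either strand.
Mt1: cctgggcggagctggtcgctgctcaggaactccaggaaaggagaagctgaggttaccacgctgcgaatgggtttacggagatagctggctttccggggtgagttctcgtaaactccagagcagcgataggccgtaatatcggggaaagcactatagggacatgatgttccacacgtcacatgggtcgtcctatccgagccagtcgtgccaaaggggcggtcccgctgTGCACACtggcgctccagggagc
Mt2: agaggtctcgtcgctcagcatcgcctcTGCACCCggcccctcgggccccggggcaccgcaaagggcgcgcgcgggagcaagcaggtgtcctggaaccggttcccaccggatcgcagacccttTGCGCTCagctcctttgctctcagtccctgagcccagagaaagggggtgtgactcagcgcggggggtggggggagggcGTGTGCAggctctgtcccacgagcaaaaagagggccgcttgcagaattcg
Slc30a1: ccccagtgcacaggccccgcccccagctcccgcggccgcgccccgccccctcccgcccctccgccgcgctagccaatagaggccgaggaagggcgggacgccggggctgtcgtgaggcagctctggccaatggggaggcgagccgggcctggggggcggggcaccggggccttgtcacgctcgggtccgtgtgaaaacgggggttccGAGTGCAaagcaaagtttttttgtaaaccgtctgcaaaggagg
The third capital run of Mt2 and the run of Slc30a1 read as the motif on the opposite strand.

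With the 50 bases after the start included, the window of Mt2 held 4 matches, that of Mt1 held 3, that of Slc30a1 held 2 and that of Slc30a5 held 1. No match overlapped another. Counting the first transcribed base as 1, the matches of Mt1 began at -23, 3 and 21, and those of Mt2 at -223, -128, -50 and 5. Those of Slc30a1 began at -43 and 31, and that of Slc30a5 at -48. Among all 32851 RefSeq windows of this length, 25.7% held at least 1 match, 7.11% at least 2, 1.97% at least 3 and 0.517% at least 4. The letters were not in the windows of Mtf1, Slc30a7, Slc39a1 and Slc39a7, nor in either window of Slc39a10. In all, 9 of the 10 genes matched the table by symbol and the other, Slc39a6, had no window. A match describes these letters only.

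In control cells, the metallothioneins were by far the most abundant of the 10 transcripts. Mt1 (ENSMUSG00000031765, GRCm38 chromosome 8 from 94179089 to 94180325, plus strand) had 567.9 ± 152.4 FPKM (SD, n = 3), place 88 among all genes, and made up 48.2% of the summed FPKM of the 10. Mt2 (ENSMUSG00000031762, chromosome 8 from 94172618 to 94173567, plus strand) followed with 180.1 ± 77.8 FPKM, or 15.3% of the sum. Both are protein-coding genes and lie next to each other, with 5521 bases between them. They are similar in sequence, and reads that fit both were divided between them by the multi-read correction of the study, so how those reads were split is a limit on each value. The other genes of the cluster, Mt3 (chromosome 8 from 94152607 to 94154148), a form known from neurons, and Mt4, a form of stratified epithelium, were listed at 0 in all 9 libraries.

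Below them came a group of transporters at similar levels. Slc39a7, which releases zinc from the endoplasmic reticulum, had 100.4 ± 1.73 FPKM in control cells. Slc30a5 had 75.3 ± 1.69, Slc39a10 74.3 ± 10.9, Slc39a6 72.7 ± 4.24 and Slc39a1 67.2 ± 3.13 FPKM (SD, n = 3 each). The control libraries of neighbours among these last 4 overlapped, so their order was within the spread. Mtf1 had 21.1 ± 2.13 FPKM and Slc30a7 had 13.3 ± 0.478. Slc30a1 was the lowest of the 10 at 4.74 ± 0.639 FPKM, place 9099 among all genes. At every other step in the order the control libraries of the neighbours did not overlap.

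**Figure D1:**
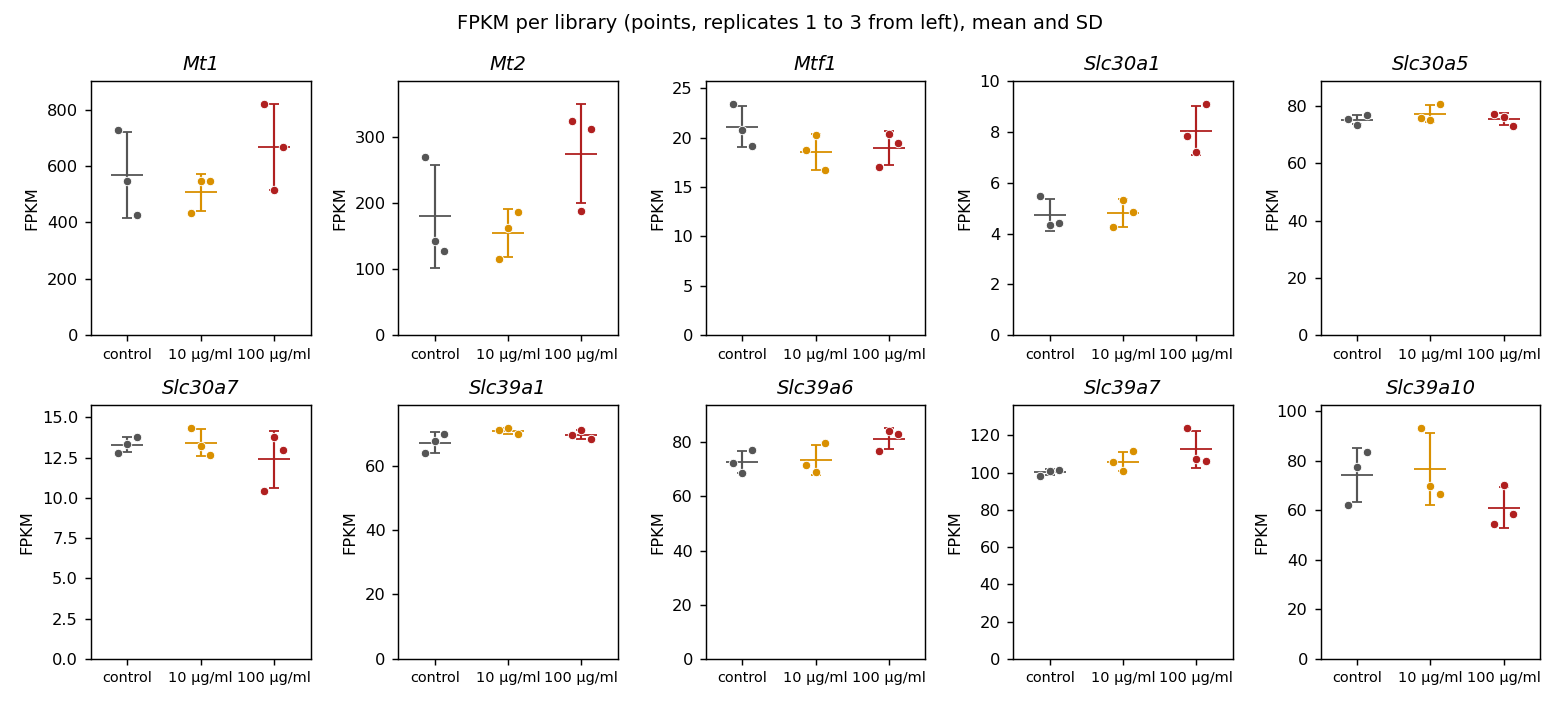
FPKM of the 10 genes in each of the 9 libraries, 1 panel per gene with its own axis from 0; points are libraries, horizontal lines group means and bars SD (n = 3). The 100 µg/ml libraries of Slc30a1 lie between 7.204 and 9.093 FPKM, above all others, whereas those of Mt1 overlap both other groups.

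Of the 10 genes, 1 passed an adjusted p of 0.05 in the comparison of 100 µg/ml with control cells. This was Slc30a1, which rose, where 2.11% of all genes tested passed in either direction, 0.708% as higher and 1.41% as lower. The same gene was the 1 that passed between 100 and 10 µg/ml, where 0.851% of genes passed in either direction, 0.215% as higher and 0.636% as lower. None of the 10 passed between 10 µg/ml and control cells, and no gene at all passed there (0.0%) by limma, with 366 genes, 3.28%, at an unadjusted p under 0.05. The median log2 fold change of the 10 was 0.107, 0.016 and 0.056 in the comparisons of the high dose with controls, of the low dose with controls and of the 2 doses, beside -0.002, 0.0 and 0.0 for all genes tested. The comparisons share libraries, so they are not independent. Fold changes are on log2(FPKM + 1), which understates the change of low genes, and the error given with each is the standard error from limma.

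The libraries of 100 µg/ml lay above all control libraries for Slc30a1 and Slc39a7, 2 of the 10 genes, where 12.5% of all genes did so, 11.4% lay below and 23.8% thus did not overlap. They lay above all 10 µg/ml libraries for Slc30a1 and Mt2, where 9.37% of all genes did so, 9.99% lay below and 19.4% thus did not overlap. In the comparison of 10 µg/ml with control cells, the libraries overlapped for all 10 genes, where 6.14% of all genes were higher without overlap, 4.61% were lower and 10.7% were either.

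Mt2 was higher on average at 100 µg/ml, but its libraries varied too widely to separate from the controls. It had 269.6, 142.9 and 127.8 FPKM in control replicates 1, 2 and 3. At 10 µg/ml it had 115.6, 162.7 and 187.1 FPKM. At 100 µg/ml it had 323.5, 187.9 and 312.1 FPKM. Control replicate 1 thus stood well above the other controls and above replicate 2 at 100 µg/ml, and the 10 µg/ml libraries alone were all below those of 100 µg/ml, the closest being 187.1 and 187.9 FPKM. Against control cells its log2 fold change was 0.65 ± 0.32 for the high dose (ratio of means 1.52) and -0.16 ± 0.32 for the low dose, and between the doses it was 0.81 ± 0.32. None passed the adjusted threshold. Without control replicate 1 the first value was 0.98, and without control replicate 3 it was 0.44.

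Mt1 followed the same libraries over a range that was narrower on the log2 scale, though not in FPKM. It had 729.2, 548.4 and 426.2 FPKM in the control libraries. At 10 µg/ml it had 432.1, 546.2 and 545.9 FPKM, and at 100 µg/ml 819.5, 515.0 and 669.6 FPKM. The 3 groups overlapped, with control replicate 1 above replicates 2 and 3 of 100 µg/ml. On the log2 scale Mt1 differed from control cells by 0.24 ± 0.22 in the high dose and by -0.13 ± 0.22 in the low dose, and between the doses by 0.38 ± 0.22, and none passed the adjusted threshold. Without control replicate 3 the first value was 0.05, and without control replicate 1 it was 0.44.

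The 2 metallothioneins did not vary in equal measure. The ratio of Mt1 to Mt2 FPKM was 2.71, 3.84 and 3.33 in control cells, 3.74, 3.36 and 2.92 at 10 µg/ml and 2.53, 2.74 and 2.15 at 100 µg/ml. It was lowest where Mt2 was high, which follows in part from Mt2 being its denominator and having the wider spread on the log2 scale. The control and 100 µg/ml groups overlapped by control replicate 1.

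The spread of the metallothioneins within groups was among the wider ones of the table. The SD of log2(FPKM + 1) within groups was 0.466 for Mt2, and 2.53% of all genes tested had a larger one. It was 0.316 for Mt1, with 5.46% of genes above it, although the lowest library still held an estimated 3737 fragments of Mt1 and 725 of Mt2. Next came Slc39a10 at 0.223, with 13.8% of genes above it, and Slc30a1 at 0.148. The steadiest were Slc30a5 and Slc39a1, at 0.043 each, where 95.3% and 95.4% of genes had a larger SD.

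Mtf1 (ENSMUSG00000028890, chromosome 4 from 124802104 to 124849800, plus strand) lay between 16.7 and 23.4 FPKM in all libraries. It had 23.41, 20.82 and 19.20 FPKM in control cells, 18.78, 20.31 and 16.69 at 10 µg/ml and 17.05, 20.43 and 19.46 at 100 µg/ml. The groups overlapped, with control replicate 1 the highest library. Relative to control cells it stood at -0.15 ± 0.10 in the high dose and -0.18 ± 0.10 in the low dose (log2 fold change).

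Slc30a1 (ENSMUSG00000037434, chromosome 1 from 191906767 to 191913247, plus strand), which encodes the plasma membrane exporter ZnT1, was the 1 gene of the 10 past the adjusted threshold. It had 5.471, 4.319 and 4.416 FPKM in control cells. It had 4.248, 5.330 and 4.861 FPKM at 10 µg/ml. It had 7.856, 7.204 and 9.093 FPKM at 100 µg/ml. Every 100 µg/ml library lay above every other library, and the control and 10 µg/ml libraries overlapped. The ratio of means was 1.70 between 100 µg/ml and control cells and 1.67 between the doses. In log2 terms the high dose exceeded control cells by 0.66 ± 0.12 (limma, adjusted p = 0.0279 over all genes tested) and the low dose by 0.64 ± 0.12 (limma, adjusted p = 0.0489). The low dose exceeded control cells by 0.02 ± 0.12.

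The fold change of Slc30a1 at 100 µg/ml kept its sign in all 19 alternative fits, between 0.58 and 0.77, and passed the threshold in 11 of them. It missed it when control replicate 1, 2 or 3, the third library of the low dose or the third of the high dose was left out. There limma gave an adjusted p of 0.0510, 0.121, 0.0911, 0.0548 and 0.0864 in that order. It also missed it with no filter, with the replicate block and with only the 6 libraries compared. In these fits the adjusted p from limma was 0.0596, 0.0777 and 0.0937. Between the doses it passed in 4 of the 19 fits and missed the threshold when any 1 library was left out, where limma gave an adjusted p of up to 0.202, reached on leaving out the first library of the low dose. Its lowest library held an estimated 175 fragments of the gene.

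The other 2 exporters among the 10 load zinc into the early secretory pathway, and neither moved beyond its spread. Slc30a5 (ENSMUSG00000021629, chromosome 13 from 100802649 to 100833427, minus strand) had between 73.1 and 80.7 FPKM in the 9 libraries, and differed from control cells by 0.00 ± 0.05 in the high dose and 0.04 ± 0.05 in the low dose (log2). Slc30a7 (ENSMUSG00000054414, chromosome 3 from 115938973 to 116007406, minus strand) had between 10.4 and 14.4 FPKM, lowest in replicate 1 of 100 µg/ml. Its log2 differences were -0.10 ± 0.10 for the high dose and 0.01 ± 0.10 for the low dose.

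Among the importers, Slc39a10 (ENSMUSG00000025986, chromosome 1 from 46807544 to 46892852, minus strand), a plasma membrane ZIP, had the widest range. It had 62.22, 77.46 and 83.35 FPKM in control cells, 93.18, 69.69 and 66.68 at 10 µg/ml and 54.33, 70.20 and 58.22 at 100 µg/ml. The 2 lowest libraries were those of 100 µg/ml in which Mt1 and Mt2 were highest, and the groups overlapped. From control cells it differed by -0.28 ± 0.16 in the high dose and 0.04 ± 0.16 in the low dose on the log2 scale, and between the doses by -0.32 ± 0.16, and none passed the threshold.

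Slc39a6 (ENSMUSG00000024270, chromosome 18 from 24579881 to 24603817, minus strand), also a plasma membrane ZIP, had 72.40, 68.60 and 77.08 FPKM in control cells. It had 71.57, 68.91 and 79.56 FPKM at 10 µg/ml and 76.80, 84.27 and 82.92 FPKM at 100 µg/ml. Replicates 2 and 3 of 100 µg/ml were above all other libraries, and replicate 1 was just below control replicate 3. A log2 fold change of 0.16 ± 0.07 for the high dose did not pass the adjusted threshold.

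Slc39a7 (ENSMUSG00000024327, chromosome 17 from 34028267 to 34031690, minus strand) had 98.41, 101.0 and 101.7 FPKM in control cells, 105.8, 100.8 and 111.4 at 10 µg/ml and 124.1, 107.3 and 106.4 at 100 µg/ml. The 100 µg/ml libraries were all above the controls and overlapped those of 10 µg/ml. Its log2 fold change of 0.16 ± 0.07 for the high dose did not pass the adjusted threshold. Slc39a1 (ENSMUSG00000052310, chromosome 3 from 90248172 to 90253612, plus strand), a widely expressed plasma membrane ZIP, had between 63.9 and 71.8 FPKM in all libraries. It differed from control cells by 0.05 ± 0.05 in the high dose and 0.08 ± 0.05 in the low dose (log2).

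**Figure D2:**
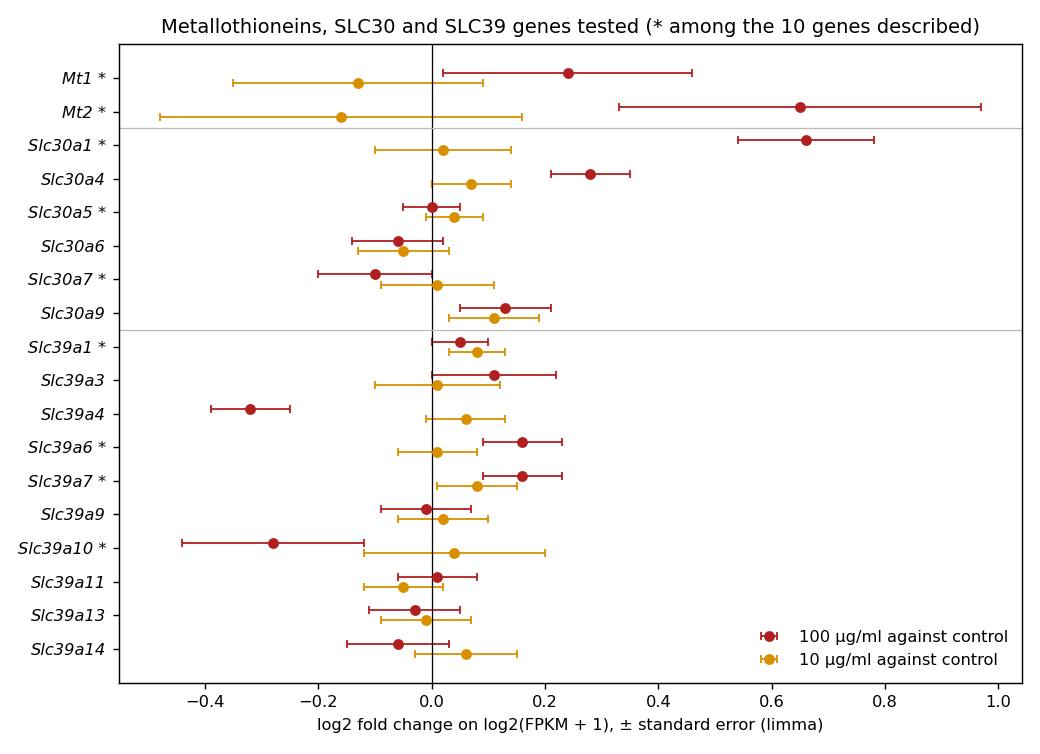
Log2 fold change on log2(FPKM + 1) with its standard error for the 18 metallothionein, SLC30 and SLC39 genes tested, at 100 µg/ml (red) and 10 µg/ml (orange) against control cells; asterisks mark genes among the 10. Slc30a1 and Mt2 stand farthest to the right at 0.66 and 0.65, with standard errors of 0.12 and 0.32.

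The whole families, taken by name, held 28 genes, of which 18 passed the filter and 5 were listed at 0 in every library. Of the 18 tested, 1 rose and 0 fell at 100 µg/ml against control, 0 passed at 10 µg/ml, and 1 rose and 0 fell between the doses, in each case Slc30a1. Of all genes tested, 2.11%, 0.0% and 0.851% passed in these comparisons. The median log2 fold change was 0.031, 0.023 and 0.005 in the 3 comparisons, close to that of all genes. Of the exporters 6 of 10 were tested, and of the importers 10 of 14. The genes below the filter were Slc30a2, Slc30a3, Slc30a8, Slc30a10, Slc39a2, Slc39a5, Slc39a8 and Slc39a12 beside Mt3 and Mt4.

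Among the 9 tested family genes outside the 10, a pair differed from control cells at 100 µg/ml without overlap, beside 23.8% of all genes tested. Slc39a4, the importer of dietary zinc in the intestine, had 13.19, 14.29 and 14.32 FPKM in control cells, 15.74, 13.23 and 14.85 at 10 µg/ml and 11.47, 10.68 and 10.69 at 100 µg/ml. Its 100 µg/ml libraries were below all others, and the log2 difference of -0.32 ± 0.07 from control cells missed the threshold (limma, adjusted p = 0.0624). Slc30a4, an exporter that fills vesicles, had 24.64, 26.98 and 28.60 FPKM in control cells and 29.88, 33.60 and 34.28 at 100 µg/ml. Its log2 difference was 0.28 ± 0.07 (limma, adjusted p = 0.0919). Both passed with a correction of each library for GC content and transcript length and without replicate 1 of 100 µg/ml. The remaining 7 lay between -0.06 for Slc30a6 and Slc39a14 and 0.13 for Slc30a9, with Slc39a3 at 0.11, Slc39a11 at 0.01, Slc39a9 at -0.01 and Slc39a13 at -0.03.

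The lists of related genes showed single calls at 100 µg/ml against control. Of 6 tested genes described as responsive to MTF1 other than Mt1, Mt2 and Slc30a1, Mtf1 included, 0 rose and 1 fell, beside 0.708% and 1.41% of all genes tested, with a median log2 fold change of -0.134. The gene that fell was Ndrg1, a stress-responsive gene known for its induction by metals and hypoxia, from 9.17 ± 0.657 to 6.60 ± 0.319 FPKM (SD, n = 3), or by -0.42 ± 0.08 in log2 (limma, adjusted p = 0.0366). Gclc, the catalytic subunit of glutamate-cysteine ligase in glutathione synthesis, stood at 0.19 ± 0.05 and missed the threshold.

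Of 7 tested genes of the heavy metal and oxidant response, 1 rose and 0 fell, beside the same 0.708% and 1.41% of all genes, and the median was 0.215. At an unadjusted p under 0.05 there were 5 of the 7, beside 19.4% of all genes tested, and 4 of the 7 were higher without overlap, beside 12.5% of all genes. Of the 5, Slc7a11, the cystine transporter subunit xCT, had the opposite sign, at -0.35 ± 0.15 in log2 with overlapping libraries, and missed the adjusted threshold. This list was chosen with results of these data known. Txnrd1, the cytosolic thioredoxin reductase, rose from 111.0 ± 2.31 to 136.5 ± 2.11 FPKM (SD, n = 3), or by 0.30 ± 0.05 in log2 (limma, adjusted p = 0.0197). It missed the threshold in 6 of the 19 alternative fits and Ndrg1 in 11. Of 11 tested copper-handling genes, 0 passed in any comparison by limma, with 4 at an unadjusted p under 0.05 at 100 µg/ml against control, beside 19.4% of all genes tested. All 9 tested microglial and macrophage markers had a log2 fold change below 0, with a median of -0.199. Their summed level was 1329, 1275 and 1141 FPKM in control cells, 1182, 1156 and 1230 at 10 µg/ml and 1231, 1083 and 1075 at 100 µg/ml, and these groups overlapped. The part of these markers in the values of the zinc genes was not tested.

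Slc39a10 was low in the libraries in which Mt1 and Mt2 were high, also within groups. To take out the group means, correlations were computed on deviations of log2(FPKM + 1) from the mean of each group, over all 9 libraries, for the 45 pairs of the 10 genes. Mt1 and Mt2 had a Pearson r of 0.932 and a Spearman rho of 0.9. Slc39a10 had an r of -0.948 and a rho of -0.933 with Mt2, and an r of -0.913 and a rho of -0.883 with Mt1. In each of the 3 groups the libraries ranked by Mt2 stood in exactly the opposite order by Slc39a10, and for Mt1 this held in 2 of the 3 groups.

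An exact two-sided permutation test within groups allowed 216 arrangements and no p below 0.00463. For Pearson's r it gave p = 0.00463 for Mt2 with Slc39a10 and p = 0.00926 for each of the other 2 pairs. For Spearman's rho the exact permutation p was 0.00463 for Mt2 with Slc39a10, 0.0185 for Mt1 with Mt2 and 0.00926 for Mt1 with Slc39a10. Adjusted over the 45 pairs, all 3 values for r were 0.0833, and 0 of the 45 pairs passed 0.05. Unadjusted, 8 pairs had an exact permutation p under 0.05. Among these, Mtf1 with Slc39a7 had an r of -0.835 and a rho of -0.833, and r was -0.961 after correction for GC content and transcript length. Slc30a7 with Slc39a10 had an r of 0.737 and a rho of 0.867. Both had the same adjusted p of 0.0833 by the exact permutation test for r. The pairs named were singled out after their values were seen, and the 10 genes were chosen with these libraries known, so these p values are descriptions. Within groups, 0.448% of all genes tested had an r with Mt2 below -0.9 and 0.412% had one above 0.9. With Mt1 these shares were 0.789% and 0.923%. Without the 2 libraries farthest from the median of Mt2, r of Mt2 with Slc39a10 was -0.941, for Mt1 with Slc39a10 it was -0.905 and for Mt1 with Mt2 0.895, each without the 2 libraries farthest on the first gene. After the correction for GC content and transcript length, r was -0.930 for Mt2 with Slc39a10, -0.922 for Mt1 with Slc39a10 and 0.903 for Mt1 with Mt2.

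**Figure D3:**
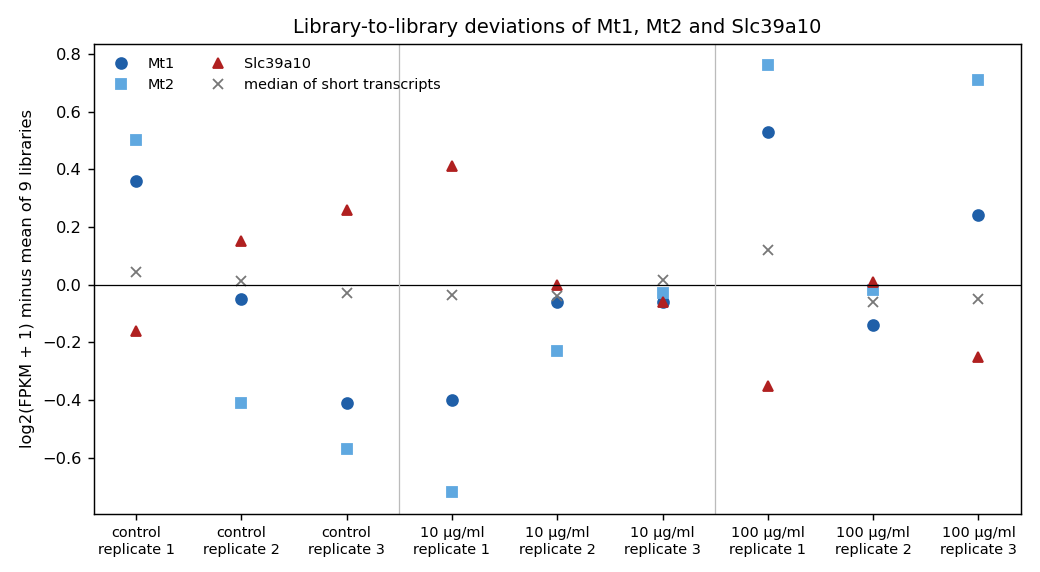
Deviation of log2(FPKM + 1) from the mean of the 9 libraries for Mt1 (circles), Mt2 (squares) and Slc39a10 (triangles) in each library. Crosses give the median of the 1587 genes whose annotated transcripts have a median length of at most 650 bases. Mt2 reaches 0.76 in replicate 1 of 100 µg/ml, where Slc39a10 is at -0.35, and -0.72 in replicate 1 of 10 µg/ml, where Slc39a10 is at 0.41.

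Transcript length moved with part of this pattern. Length was taken as the median over the annotated transcripts of a gene, which need not be the length of the one expressed. By this measure Mt2 has 449.5 bases and Mt1 633, against 1468.5 for Slc39a10. A gene with short transcript models beside a long one can thus count as short. Over 1587 tested genes of at most 650 bases, a limit set after these values were seen, the median deviation from the mean of the 9 libraries was 0.119 in replicate 1 of 100 µg/ml, where Mt2 deviated by 0.76. It was -0.049 in replicate 3 of 100 µg/ml, where Mt2 deviated by 0.71, and 0.045 in control replicate 1, where Mt2 deviated by 0.50. In control replicates 2 and 3 the medians of the short genes were 0.014 and -0.028, and Mt2 deviated by -0.41 and -0.57. At 10 µg/ml they were -0.035, -0.038 and 0.016 in replicates 1, 2 and 3, where Mt2 deviated by -0.72, -0.23 and -0.03. In replicate 2 of 100 µg/ml the median was -0.059 and Mt2 deviated by -0.02. Over 1479 genes of at least 3000 bases, the median deviation ran from -0.132 in replicate 1 of 100 µg/ml to 0.056 in replicate 2. The correction for GC content and transcript length used the same median lengths. Beyond it, the part of length in the values of the metallothioneins was not tested.

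Over the 9 libraries without removal of the group means, Slc39a10 had the lowest r with Mt2 of all 11160 other genes tested, at -0.965. With Mt1 it had -0.924, and 0.0896% of genes had a lower value. Of all genes, 0.161% had an r with Mt2 below -0.9 and 0.134% had one above 0.9, with all points sharing the same 9 libraries. Within groups, 5 of the 11160 genes had a lower r with Mt2 than Slc39a10, and 10 of 11075 after the correction for GC content and length. With Mt1, 70 of the 11160 genes had a lower r within groups, and 37 of 11075 after the correction. Slc30a1 had an r of 0.841 with Mt2 within groups, where 124 of 11160 genes had a higher one, and 0.960 after the correction, where 4 of 11075 did. With Mt1 it had 0.691 within groups and 0.885 after the correction. Over the 9 libraries without removal of the group means, the r with Mt2 was 0.841 for Slc30a1, 0.455 for Slc39a7, 0.425 for Slc39a6, -0.02 for Mtf1, -0.09 for Slc30a5, -0.447 for Slc39a1 and -0.737 for Slc30a7. Once the group means were removed, Slc39a1 had an r of -0.841 with Mt2 and Slc30a7 had -0.663. After the correction these were -0.646 and -0.574.

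**Figure D4:**
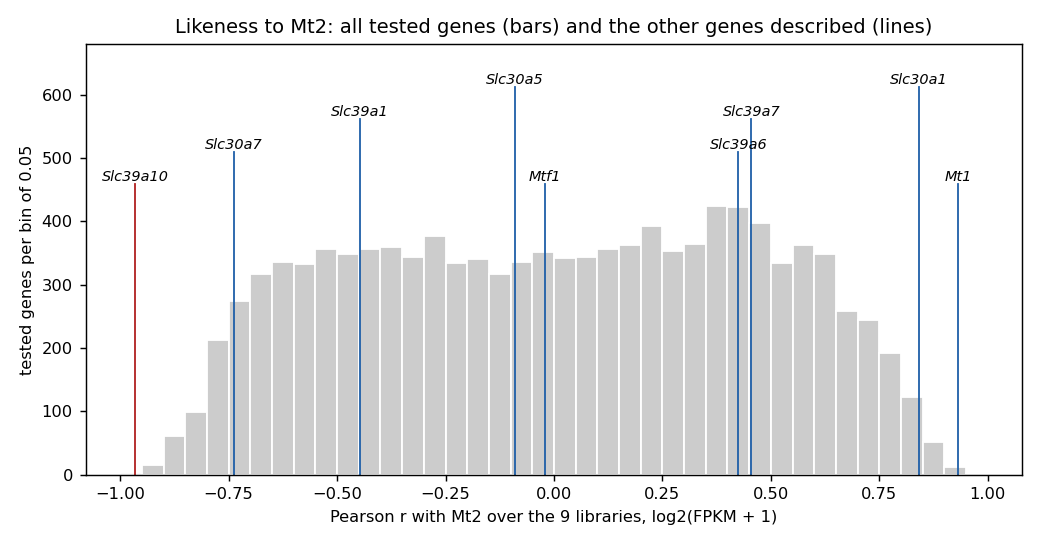
Number of tested genes per bin of 0.05 in Pearson r with Mt2 over the 9 libraries (bars), with the r of the other 9 zinc genes as lines whose heights carry no value. Slc39a10 lies at -0.965, left of every other gene, and Mt1 at 0.932.

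The genes whose levels were most like Mt1 by this r were Tmem11 (0.964), Znrd1as (0.958), Spr (0.954), Mrpl21 (0.950) and Prim1 (0.938), with Mt2 in place 7. Most like Mt2 were Mrps18b (0.962), Zfp82 (0.951), Ccdc55 (0.949), Got1 (0.937) and Tra2b (0.934), with Mt1 in place 7. Most like Slc30a1 were Sfxn1 (0.980), Gtf2h1 (0.975), Zyx (0.973), Csrnp1 (0.972) and Eif1a (0.960). Zyx, the focal adhesion protein zyxin, was the 1 gene of these that passed the adjusted threshold at 100 µg/ml against control, at 0.44 in log2 (limma, adjusted p = 0.0192).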

How the data were processed

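RNA-seq reads of 9 libraries of BV2 cells were filtered by the authors for quality, aligned with TopHat and summarised with Cufflinks 2.1.1 on Ensembl release 77 with multi-read and fragment bias correction, which gave the deposited FPKM of 40993 genes in 1 table. Such values can move with transcript length, and the depth is not given: from 2800 low values of long single-transcript genes, 78.1% of which lay within 0.25 of a whole number of fragments, it was estimated at 11.9 to 14.85 M fragments per library. FPKM summed to between 473547 and 522812 per library.

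Here, log2(FPKM + 1) of the 11161 genes with a mean FPKM of at least 1 was fitted with limma 3.58.1 in R 4.3.3 (eBayes with trend, all 9 libraries in 1 fit, Benjamini-Hochberg adjustment over all genes tested, threshold of 0.05), after the fit had been tested on simulated data. Groups came from the sample labels. Transcript length and GC content came from GENCODE, with length the median over the annotated transcripts of a gene, also in the estimated fragments. The 3 comparisons of the groups share libraries. No count test was used, since the values are not counts. Correlations were computed in Python 3.11.15 with numpy 2.4.6, and their p by exact permutation within groups. The 10 genes, the gene lists and the pairs were chosen with earlier results of these data known. Genes named were the 10, all metallothionein, SLC30 and SLC39 genes, genes of the MTF1, copper and heavy metal lists past the threshold, and the 5 genes most like each of Mt1, Mt2 and Slc30a1. Gclc, Slc7a11, the markers and the libraries singled out were named beyond this rule, after their values were seen. For 1 gene of the marker list, no value of its own is reported here. Promoter windows of 250 bases before and 50 after each start came from RefSeq (GRCm38.p6), and positions of genes are those of the table (GRCm38). The alternatives were other pseudocounts (0.1 and 0.01), no filter or a mean of 5 FPKM, quantile or median-of-ratios scaling, a replicate block, no trend, only the 6 libraries compared, a loess correction for GC content and length, and each library left out.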

Additional observations from a re-analysis of the deposited data

How the results depend on the processing

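The count of all genes past the threshold at 100 µg/ml against control was 236, and became 106 with the replicate block, 22 with only the 6 libraries compared, 372 with the GC content and length correction, and 28 (without control replicate 2) to 530 (without replicate 1 of 100 µg/ml) when 1 library was left out. Between the doses it was 95, and became 13 with the block, 6 with only the 6 libraries compared, and 8 (without replicate 1 of 10 µg/ml) to 189 (without replicate 1 of 100 µg/ml). At 10 µg/ml it was 0, and became 4 with no filter, 1 with only the 6 libraries compared and 0 to 2 with 1 library left out. Of the 10 zinc genes, the 1 call at 100 µg/ml became 0 with no filter, with the block and with only the 6 libraries compared, and was 0 to 1 with 1 library left out. Between the doses the 1 call became 0 with no filter, with a mean of at least 5 FPKM, with median-of-ratios rescaling, with the block, without trend, with only the 6 libraries compared and whichever library was left out. In the whole families the same settings gave the same values of 0, except that the GC content and length correction gave 3 calls at 100 µg/ml and 2 between the doses, and leaving out 1 library gave 0 to 3 and 0 to 1. The cause of these changes was not tested, apart from the smaller number of libraries in some fits. The replicate numbers share no stated origin, and deviations of libraries with the same number correlated at 0.152, 0.033 and 0.098 between 100 µg/ml and control, so they were not taken as pairs. With the block Slc30a1 had an adjusted p of 0.0777 from limma at 100 µg/ml. None of the other 9 genes passed the threshold in any of the 19 alternatives, and at 100 µg/ml against control Mt1, Mt2 and Slc39a10 kept their sign in all 19. The sign of Mt1 and Mt2 at 10 µg/ml held in 18 and 17 of 19. The median of all genes moved by less than 0.1 under every setting.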
